A study of Mus musculus with 64 samples.

Results

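The genes described are 36 endothelial cell and vessel genes, of 39115 named nuclear genes in the count table. They were taken by symbol as markers of capillary, arterial, venous and lymphatic vessels, with no measured value in the rule. All 36 symbols were found, and all 36 passed the filter on low counts in each comparison. RNA was sequenced from the RV (right ventricle) and the LV (left ventricle) of 32 C57BL6 mice of a model of arrhythmogenic right ventricular cardiomyopathy, which gave 64 libraries. Every animal carried floxed alleles of Pkp2, the gene of the desmosomal protein plakophilin-2. In the knockout animals a tamoxifen-activated Cre recombinase under the αMyHC promoter deleted Pkp2 in cardiomyocytes, so the deletion was not directed at endothelial cells. By label, each replicate was a separate animal with 1 RV and 1 LV library, and animals are named by group and number. The cKO group (4 animals) received HBSS vehicle. AAV_3E13 (8 animals) received an adeno-associated virus of serotype 9 with mouse Pkp2 at 3e+13 vector genomes per kg, and AAV_1E14 (5 animals) received 1e+14, both 1 week before tamoxifen by the labels, although the study's own text is not uniform on this. AAV_1E14_2.5wk (6 animals) received 1e+14 at 2.5 weeks after it. WT animals (9) were littermates without Cre, given vehicle. Untreated cKO animals of this model die within weeks of the deletion. By the study, cKO hearts were collected within weeks of induction, whereas WT hearts and treated hearts were collected late. Age and time since tamoxifen therefore cannot be told apart from genotype or treatment where cKO is compared, with WT as well as with the vector groups.

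Endothelial cells line every vessel of the heart. They are joined by VE-cadherin (Cdh5) and claudin 5 (Cldn5), and they sense growth factors through the VEGF receptors and the angiopoietin receptor Tek with its partner Tie1. Notch signalling between neighbouring cells sets arterial identity, Nr2f2 sets venous identity, and cardiac capillaries pass fatty acids to the cardiomyocytes, which burn them as their main fuel.

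Promoters of 4 members are shown because the results turn on them. Tie1 followed the other members most closely, and Kdr and Notch4 were called in opposite directions in the RV and LV of AAV_3E13. Prox1 was the 1 member called above 0 in the difference of the RV and LV changes of each vector group. The sequences are RefSeq promoters on GRCm38.p6, 300 bases each (250 before and 50 after the start of transcription), 5′ to 3′ on the strand of the gene. Capitals mark the letters AGGAAG, a core that ETS factors such as Erg bind, and GTGGGAA, a core that the Notch effector RBPJ binds, on either strand (reversed, CTTCCT and TTCCCAC). No match of one overlapped a match of the other in these windows.
Tie1, chr4:118489800-118490099, minus strand: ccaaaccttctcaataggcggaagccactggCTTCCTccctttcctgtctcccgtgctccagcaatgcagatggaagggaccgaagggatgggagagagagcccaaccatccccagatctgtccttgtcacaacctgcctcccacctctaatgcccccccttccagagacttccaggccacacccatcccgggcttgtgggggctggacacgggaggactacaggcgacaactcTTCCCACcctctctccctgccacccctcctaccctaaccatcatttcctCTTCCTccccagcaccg
Kdr, chr5:75978406-75978705, minus strand: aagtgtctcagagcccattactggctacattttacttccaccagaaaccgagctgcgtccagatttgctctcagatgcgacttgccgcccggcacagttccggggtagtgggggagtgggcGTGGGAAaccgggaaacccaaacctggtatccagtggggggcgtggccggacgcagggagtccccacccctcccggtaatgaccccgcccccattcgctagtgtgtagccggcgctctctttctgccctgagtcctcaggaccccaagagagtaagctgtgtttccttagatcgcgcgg
Notch4, chr17:34564045-34564344, plus strand: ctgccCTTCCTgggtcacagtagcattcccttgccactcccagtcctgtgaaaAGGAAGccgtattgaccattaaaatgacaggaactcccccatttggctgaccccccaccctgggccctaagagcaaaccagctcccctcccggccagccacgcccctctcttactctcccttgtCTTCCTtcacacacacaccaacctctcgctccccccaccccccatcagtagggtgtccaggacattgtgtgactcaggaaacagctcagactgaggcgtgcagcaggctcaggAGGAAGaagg
Prox1, chr1:190170778-190171077, minus strand: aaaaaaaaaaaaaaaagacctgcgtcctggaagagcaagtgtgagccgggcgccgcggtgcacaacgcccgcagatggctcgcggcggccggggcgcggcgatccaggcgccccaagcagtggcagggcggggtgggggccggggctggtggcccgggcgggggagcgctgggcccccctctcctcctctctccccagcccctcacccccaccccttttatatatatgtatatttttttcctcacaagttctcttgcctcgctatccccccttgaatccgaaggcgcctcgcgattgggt

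Tie1 held AGGAAG at 2 places and GTGGGAA at 1, Kdr held GTGGGAA at 1 place, Notch4 held AGGAAG at 4 places, and the Prox1 window held neither. RefSeq promoters were at hand for 23 of the 36 members (29 promoters). AGGAAG was in 51.7% of these 29 and in 35.4% of all 32851 promoters of the same length, and GTGGGAA was in 6.9% and 6.38%. A match describes the letters only. On GRCm39, the assembly of the quantification, Tie1 lies at chr4:118328385-118347261, Kdr at chr5:76093487-76139884, Notch4 at chr17:34783220-34807477 and Prox1 at chr1:189850232-189904637, all protein-coding genes.

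Counts used in the tests were 5.34 M to 10.2 M per library (M, 1e+06 counts). Pkp2 lay at 38.7 to 100.1 CPM in cKO RV and 34.9 to 88.3 CPM in cKO LV, against 123 to 185 CPM in WT RV and 162 to 220.0 CPM in WT LV (CPM, counts per 1e+06 counts used). The library WT_RV_5819 held 656 CPM of atrial transcripts (Sln, Myl7, Myl4 and Nppa, summed), against 5.51 to 81.3 CPM in the other WT RV libraries. This sum also differed between groups. It was 222 to 596 CPM in cKO RV and 338 to 772 CPM in cKO LV. In AAV_1E14_2.5wk it was 30.6 to 637 CPM in RV and 79.4 to 1238 CPM in LV. In AAV_3E13 it was 32.9 to 333 CPM in RV and 88.2 to 449 CPM in LV. In AAV_1E14 it was 6.45 to 37.7 CPM in RV and 25.5 to 115 CPM in LV, and WT LV had 9.34 to 70.4 CPM. Nppa is also a heart failure marker in the study, and the source of these transcripts was not tested. The library AAV_1E14_2.5wk_RV_5814 carried both Xist (263 CPM) and Y-linked transcripts (298 CPM), whereas the LV library with the same animal number had 3064 CPM of Xist and 0 CPM of Y-linked transcripts, so the labelled pair conflicts in sex. The cKO animals differed among themselves. The members' mean deviation of log2 CPM from the mean of all libraries was -0.45 in the LV of animal cKO_2006 and 0.80 in that of animal cKO_2052, and -0.13 and 0.56 in their RV. Markers of other cells moved with the groups. Of 12 cardiomyocyte markers 0 were higher and 11 lower in each cKO ventricle, with summed levels of 38367 to 100472 CPM in cKO RV and 118480.0 to 165362 CPM in WT RV. All 12 macrophage markers were higher in each, at a summed 1419 to 3531 CPM in cKO RV and 343 to 534 CPM in WT RV. Of 12 fibroblast markers 9 were higher and 1 lower in cKO RV, at a summed 7181 to 14405 CPM in cKO RV and 1658 to 2791 CPM in WT RV. No marker of these lists lacked counts. Their part in the results below was not tested. In bulk tissue, fewer endothelial cells and less RNA per endothelial cell cannot be told apart.

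The members spanned a wide range of levels in WT hearts, given per length as TPM (transcripts per 1e+06, mean ± SD, 9 libraries for each ventricle). Fabp4, the fatty acid binding protein of capillaries, stood highest at 929 ± 131 TPM in RV and 682 ± 92.8 TPM in LV. Ly6c1, a surface protein of microvessels, followed at 515 ± 99.5 TPM in RV and 312 ± 68.1 TPM in LV. The surface and junction genes Cd34, Egfl7, Pecam1, Eng and Cdh5 had means of 158 to 252 TPM in WT RV. Neighbours in this order, such as Pecam1 (174 ± 32.4 TPM) and Eng (164 ± 22.8 TPM), did not differ beyond their spread. Among receptors, Kdr, the main VEGF receptor, was at 127 ± 17.9 TPM in WT RV, its co-receptor Nrp1 at 116 ± 17.1 TPM and Flt1, a VEGF receptor with a decoy form, at 111 ± 19.9 TPM. Plvap, the protein of vessel diaphragms, and Apln, the apelin ligand, stood lowest at 6.81 ± 2.73 TPM and 5.55 ± 2.97 TPM. Prox1, a regulator of lymphatic fate that heart muscle also makes, was at 47.1 ± 6.23 TPM in RV and 68.1 ± 6.55 TPM in LV. Pecam1, Cdh5, Tek and Tie1, which define endothelium, had counts in every library.

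**Figure D1:**
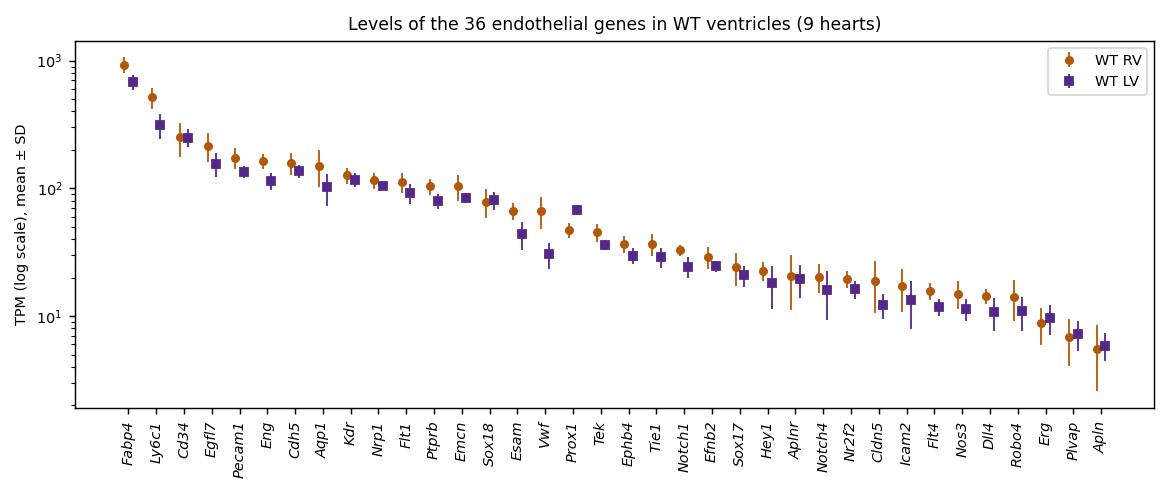
Level of each of the 36 members in WT hearts (TPM on a log axis, mean ± SD of 9 RV and 9 LV libraries). Fabp4 stands at the top with 929 TPM in RV and Apln at the bottom with 5.55 TPM.

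The untreated knockout was first compared with WT in the RV. In cKO RV, 5 members were higher and 4 lower at an adjusted p below 0.05 (called, in what follows), 9 of 36 in all, against 42.3% of 14150 genes tested. The median log2 fold change was 0.19 over members and 0.02 over all genes. The genes that were higher were Apln and its receptor Aplnr, Plvap, Notch4 and Cd34. Those that were lower were Prox1, the capillary genes Fabp4 and Aqp1, and Kdr. Without animal cKO_2006, 14 members were called.

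Plvap, which marks fenestrated and leaky vessels, had 15.8, 22.8, 10.7 and 39.2 CPM in cKO RV, against 2.84 to 10.5 CPM in WT RV (median 5.28). All 4 cKO libraries lay above all 9 WT libraries, and the log2 fold change was 1.85 (SE 0.33, adjusted p = 0.00036). In the LV it had 19.4, 25.9, 6.66 and 19.5 CPM in cKO LV, against 2.71 to 9.82 CPM in WT LV (median 4.94). There 1 cKO library lay among the WT values, and the log2 fold change was 1.58 (SE 0.33, adjusted p = 0.0013).

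The apelin receptor Aplnr, which acts on vessel growth and contractility, had 46.9, 106, 85.7 and 81.3 CPM in cKO RV, against 21.98 to 71.6 CPM in WT RV (median 36.8). It had 38.7, 149, 49.8 and 86.9 CPM in cKO LV, against 21.7 to 56.3 CPM in WT LV (median 39.5). The groups overlapped in both ventricles, and the log2 fold changes were 1.04 (SE 0.27, adjusted p = 0.0065) in RV and 1.05 (SE 0.31, adjusted p = 0.011) in LV. Without animal cKO_2052 the LV call was lost (0.59, adjusted p = 0.11). Its ligand Apln had 12.3, 14.7, 36.8 and 16.9 CPM in cKO RV, against 5.12 to 17.9 CPM in WT RV (median 7.58), which gave a log2 difference of 1.14 (SE 0.34, adjusted p = 0.014). In LV the value was 0.72 (SE 0.28, adjusted p = 0.045). Neither Apln call held without animal cKO_3213, where the log2 fold changes were 0.68 in RV (adjusted p = 0.12) and 0.28 in LV (adjusted p = 0.38). The RV call was also lost on the log2(TPM + 1) scale (0.84, adjusted p = 0.056), and the LV call was lost under 3 of 6 other processing settings and when any 1 of 9 (of 13) animals was omitted.

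Notch4, an endothelial Notch receptor, had 75.6, 72.4, 72.8 and 59.0 CPM in cKO RV, against 28.9 to 72.6 CPM in WT RV (median 42.2). It had 42.5, 101, 37.8 and 75.2 CPM in cKO LV, against 16.6 to 50.003 CPM in WT LV (median 27.7). The groups overlapped, and the log2 fold changes were 0.68 (SE 0.20, adjusted p = 0.012) in RV and 1.01 (SE 0.29, adjusted p = 0.0099) in LV. The effective length of Notch4, the length over which the quantification spread its reads, also differed, with a median of 4726 bases in cKO RV and 3854 bases in WT RV. With effective lengths as offsets the RV value was 0.34 and was not called (adjusted p = 0.2), nor was it on the log2(TPM + 1) scale (0.20, adjusted p = 0.42). Cd34, a surface protein of endothelium and progenitors, differed by 0.51 (SE 0.19, adjusted p = 0.042) on the log2 scale in RV, a call lost under 4 of 6 other processing settings and when any 1 of 7 animals was omitted.

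Of the 5 members grouped by capillary function, 1 was higher and 2, Fabp4 and Aqp1, were lower in cKO RV. Fabp4 had 284, 452, 272 and 389 CPM in cKO RV, against 557 to 774 CPM in WT RV (median 688). No library overlapped, and the log2 fold change was -0.96 (SE 0.14, adjusted p = 8.8e-05). Aqp1, the water channel of capillaries, had 88.6, 136, 88.9 and 100.4 CPM in cKO RV, against 139 to 324 CPM in WT RV (median 214). It did not overlap either, at -1.13 (SE 0.24, adjusted p = 0.0016). In LV neither was called. Fabp4 had 349, 719, 255 and 584 CPM in cKO LV, against 473 to 672 CPM in WT LV (median 512), so cKO libraries lay on both sides of WT. Kdr differed by -0.49 (SE 0.18, adjusted p = 0.034) on the log2 scale in RV, a call lost when any 1 of 7 animals was omitted.

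Prox1 was lower than WT in both ventricles. It had 37.0, 141, 128 and 128 CPM in cKO RV, against 171 to 259 CPM in WT RV (median 217). It had 35.7, 139, 86.8 and 109 CPM in cKO LV, against 280.1 to 404 CPM in WT LV (median 316). No library overlapped in either ventricle, and the log2 fold changes were -0.99 (SE 0.25, adjusted p = 0.0055) and -1.85 (SE 0.26, adjusted p = 4.5e-05). Of 10 other lymphatic endothelial genes tested in RV, 4 were higher and 0 lower, and of 9 in LV, 4 were higher and 1 lower. Among all genes tested, 42.3% in RV and 46.6% in LV were called in either direction. Pdpn, a surface protein of lymphatic vessels, had 21.6 ± 3.46 CPM in cKO RV and 5.94 ± 2.05 CPM in WT RV (SD, n = 4 and 9). Stab1, which macrophages also make, was among the others that were higher.

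In cKO LV, 9 members were higher and 1 lower, 10 of 36 in all, against 46.6% of 13846 genes called in either direction and 23.6% called higher. The median log2 fold change was 0.44 over members and 0.05 over all genes. Beside Plvap, Aplnr, Apln and Notch4, the genes that were higher were Cdh5 (0.50, SE 0.17), the TGF-beta co-receptor Eng (0.52, SE 0.18), the VEGF-C receptor Flt4 (0.65, SE 0.23), Notch1 (0.65, SE 0.20) and Nos3, the endothelial nitric oxide synthase (0.75, SE 0.26). Cdh5 had 454, 775, 347 and 608 CPM in cKO LV, against 316 to 468 CPM in WT LV (median 380.2), and its highest value was from animal cKO_2052. Without animal cKO_2052, 3 members were called in LV, and Cdh5, Eng, Flt4, Notch1, Notch4, Aplnr and Nos3 then had log2 fold changes of 0.28 to 0.71. Without animal cKO_3217 the calls of Cdh5, Eng and Flt4 were lost, and without animal cKO_2006 there were 17 calls. The difference between the RV and LV changes was itself tested, and edgeR called 0 of 36 members, with 2 at an unadjusted p below 0.05 and 0 by DESeq2, against 0.0272% of 14713 genes called. With the animal as a block 2 were called, Prox1 above 0 and Fabp4 below 0.

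Other endothelial genes were counted by list. Of the tip cell and angiogenic list, 11 of 16 were higher and 0 lower in cKO RV, and 9 of 16 were higher and 0 lower in cKO LV. Col4a1, a chain of vascular basement membrane, had 1031 ± 228 CPM in cKO RV and 278 ± 63.96 CPM in WT RV (SD, n = 4 and 9). The chemokine receptor Cxcr4 had 55.5 ± 39.2 CPM in cKO RV and 8.12 ± 2.46 CPM in WT RV (SD, n = 4 and 9). Fibroblasts also make type IV collagen and leukocytes also carry Cxcr4, and markers of both were higher in the same hearts, as given above. Of the activated endothelium list, 8 of 11 were higher in cKO RV, as were 6 of 11 in cKO LV, with 0 and 0 lower. Of the cardiac capillary list, 3 were higher and 7 lower of 20 in RV, and 4 higher and 2 lower of 20 in LV. Cd36, the fatty acid transporter that cardiomyocytes also express, had 614 ± 79.3 CPM in cKO RV and 1599 ± 296 CPM in WT RV (SD, n = 4 and 9).

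The list of vessel growth factor ligands was mixed. Of 18 tested, 5 were higher and 3 lower in cKO RV, and 4 higher and 3 lower in cKO LV. Over all genes, 42.3% in RV and 46.6% in LV were called in either direction. Vegfb, a VEGF family ligand of heart muscle, had 35.5 ± 13.9 CPM in cKO RV and 88.3 ± 12.5 CPM in WT RV (SD, n = 4 and 9). Angpt1, the activating ligand of Tek, had 27.01 ± 8.27 CPM in cKO RV and 74.6 ± 23.8 CPM in WT RV (SD, n = 4 and 9). The growth factor Fgf1 was the other ligand that was lower, and the same 3 were lower in LV. Vegfa, the main ligand of Kdr, had 230.0 ± 106 CPM in cKO RV and 325 ± 103 CPM in WT RV (SD, n = 4 and 9) and was not called.

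**Figure D2:**
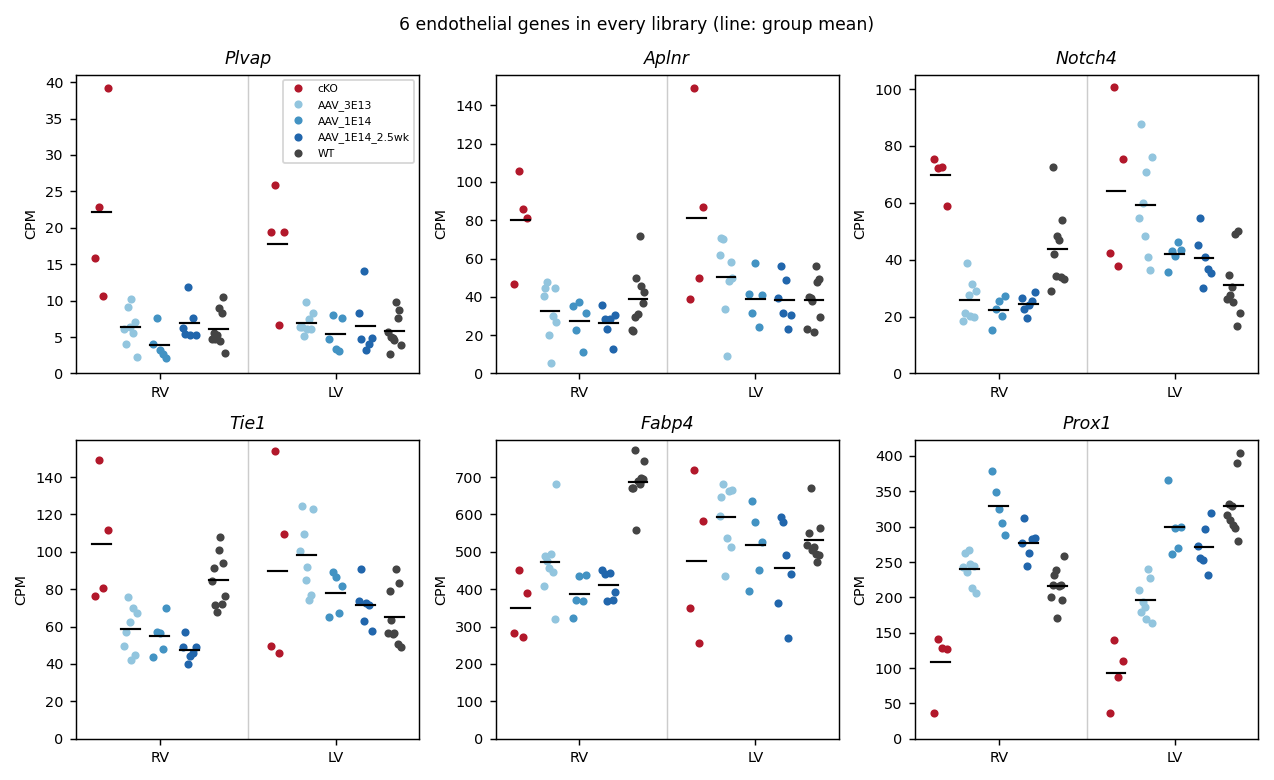
CPM of 6 members in each of the 64 libraries (points, by group and ventricle) with the group means (lines). Plvap and Aplnr stand highest in cKO, Notch4, Tie1 and Fabp4 lie lower in the RV of the vector groups than in WT RV, and Prox1 is lowest in cKO, with 37.0 CPM in the RV of animal cKO_2006.

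The vector groups were then compared with WT, whose libraries these comparisons share. In AAV_3E13 RV 1 member was higher and 16 were lower, 17 of 36, against 21.8% of 13246 genes called and 10.0% called lower. In AAV_1E14 RV 1 was higher and 26 lower, 27 of 36, against 29.5% of 13488 genes called and 14.1% called lower. In AAV_1E14_2.5wk RV 2 were higher and 28 lower, 30 of 36, against 36.3% of 13452 genes called and 18.5% called lower. The median log2 fold change was -0.30 over members and -0.02 over all genes in AAV_3E13, -0.50 over members and -0.06 over all genes in AAV_1E14 and -0.58 over members and -0.02 over all genes in AAV_1E14_2.5wk.

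Of the 36 members, 15 were lower in the RV of all 3 vector groups and 30 in at least 1. The shares of all genes in these overlaps were not counted, and the 3 comparisons share the WT libraries. The 15 were the junction and surface genes Pecam1, Cdh5, Esam, Eng and Egfl7, the receptors Kdr, Tek and Tie1, the Notch genes Dll4, Notch1 and Notch4, the venous receptor Ephb4, the transcription factor Sox18, and Fabp4 and Nos3. Cd34, Prox1, Apln, Aplnr, Erg and Plvap were called lower in none. With limma on log2(TPM + 1), 2 members were called lower in AAV_3E13 RV, Fabp4 and Esam, so on that scale at most 2 could be lower in all 3 groups.

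Tie1 had 42.0 to 76.0 CPM in AAV_3E13 RV (median 59.6), 43.6, 56.9, 56.5, 48.0 and 70.0 CPM in AAV_1E14 RV and 39.9 to 57.3 CPM in AAV_1E14_2.5wk RV (median 47.4), against 67.8 to 108 CPM in WT RV (median 84.2). The late-dosed group lay wholly below WT and the other vector groups overlapped it. The log2 fold changes in the order given were -0.54 (SE 0.13, adjusted p = 0.0059), -0.65 (SE 0.13, adjusted p = 0.0024) and -0.85 (SE 0.11, adjusted p = 4.7e-05). On the log2(TPM + 1) scale the AAV_3E13 call was lost (-0.26, adjusted p = 0.16).

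Esam, an adhesion molecule of endothelial junctions, had 27.9 to 40.4 CPM in AAV_3E13 RV (median 32.6) and 23.7 to 28.2 CPM in AAV_1E14_2.5wk RV (median 26.4), against 44.1 to 63.4 CPM in WT RV (median 48.2). Neither of these groups overlapped WT, and the log2 fold changes were -0.62 (SE 0.09, adjusted p = 0.00038) and -0.95 (SE 0.09, adjusted p = 3.8e-06). Fabp4 had 321 to 681 CPM in AAV_3E13 RV (median 466), 323, 371, 436, 367 and 437 CPM in AAV_1E14 RV and 369 to 452 CPM in AAV_1E14_2.5wk RV (median 416), against 557 to 774 CPM in WT RV (median 688). Both high-dose groups lay wholly below WT, and the log2 fold changes were -0.55, -0.84 and -0.75 (SE 0.11, 0.09 and 0.08). In the Notch pathway, Notch1 was lower by 0.50, 0.67 and 0.69 on the log2 scale, the arterial ligand Dll4 by 0.49, 0.76 and 0.64, and Notch4 by 0.77, 1.00 and 0.85. In AAV_3E13 RV none of these 3 was called on the log2(TPM + 1) scale, at -0.27 for Notch1, -0.22 for Dll4 and -0.28 for Notch4, and Notch4 was not called with length offsets either (-0.47, adjusted p = 0.1). Esam had -0.35 there on the log2(TPM + 1) scale. In AAV_1E14 RV, Notch4 had the lowest log2 ratio of effective length to WT among the 36 members, at -0.53. The part of length in its value there was not tested.

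The members called higher in these RV comparisons were Prox1 and Cd34. Prox1 had 207 to 267 CPM in AAV_3E13 RV (median 244), 378, 349.5, 326, 305 and 288 CPM in AAV_1E14 RV and 244 to 313 CPM in AAV_1E14_2.5wk RV (median 279), against 171 to 259 CPM in WT RV (median 217). AAV_1E14 lay wholly above WT, and the log2 fold changes were 0.59 (SE 0.09, adjusted p = 0.00055) in AAV_1E14 and 0.35 (SE 0.08, adjusted p = 0.0038) in AAV_1E14_2.5wk, with 0.14 in AAV_3E13, which was not called. Cd34 was higher in AAV_3E13 (0.54, SE 0.15) and in AAV_1E14_2.5wk (0.47, SE 0.17), where the call was lost with length offsets (0.45, adjusted p = 0.056) and when any 1 of 7 animals was omitted. Of 12 cardiomyocyte markers 1, 9 and 5 were higher and 3, 1 and 2 lower in the RV of AAV_3E13, AAV_1E14 and AAV_1E14_2.5wk. Their summed level was 163227 to 195555 CPM in AAV_1E14 RV and 118480.0 to 165362 CPM in WT RV. Of 12 macrophage markers 6, 2 and 6 were higher and 0 lower in each, at a summed 528 to 1114 CPM in AAV_3E13 RV, 431 to 596 CPM in AAV_1E14 RV and 435 to 691 CPM in AAV_1E14_2.5wk RV, against 343 to 534 CPM in WT RV. Of 12 fibroblast markers 10, 0 and 8 were higher and 0 lower in each, at a summed 2607 to 5178 CPM in AAV_3E13 RV, 2027.5 to 2442 CPM in AAV_1E14 RV and 2248 to 6054 CPM in AAV_1E14_2.5wk RV, against 1658 to 2791 CPM in WT RV. The part of these cells in the RV values of the members was not tested. Of 20 cardiac capillary genes 7, 12 and 17 were lower in the 3 groups and 0, 1 and 0 higher, against 10.0%, 14.1% and 18.5% of all genes called lower.

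The scale bore on these counts. With limma on log2(TPM + 1), 4 (2 higher and 2 lower) members were called in AAV_3E13 RV, 16 (1 higher and 15 lower) in AAV_1E14 RV and 20 (2 higher and 18 lower) in AAV_1E14_2.5wk RV. Over all genes that scale called 2892 of 13246, 2929 of 13488 and 4266 of 13452. The share of members called was thus below that of all genes in AAV_3E13 RV, and above it in the RV of both high-dose groups. In AAV_3E13 RV that scale moved the median of all genes to 0.14, and the members' median was -0.27 relative to it, beside -0.28 on counts. The members' effective lengths had median log2 ratios to WT of -0.11, -0.04 and -0.10 in the 3 groups. With lengths as offsets in edgeR, 13, 22 and 24 members were called, beside 2055 of 13246, 3302 of 13488 and 4356 of 13452 genes.

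In the LV, AAV_3E13 had 24 members higher and 1 lower, 25 of 36, against 39.2% of 13116 genes called and 19.9% called higher. The median log2 fold change was 0.46 over members and 0.05 over all genes. All 6 Notch and artery genes, all 3 genes of the angiopoietin receptor class, 8 of 11 junction and surface genes and 3 of 4 VEGF receptors were higher. Eng had 211 to 359 CPM in AAV_3E13 LV (median 275), against 140.1 to 229.6 CPM in WT LV (median 178), which gave a log2 difference of 0.61 (SE 0.11, adjusted p = 0.00029). Notch4 had 36.4 to 87.9 CPM in AAV_3E13 LV (median 57.3), against 16.6 to 50.003 CPM in WT LV (median 27.7), which gave a log2 difference of 0.93 (SE 0.21, adjusted p = 0.002). Flt4 (0.64, SE 0.12), Notch1 (0.66, SE 0.13) and Nos3 (0.74, SE 0.17) were higher too. Prox1 was the 1 member that was lower, with 164 to 240.1 CPM in AAV_3E13 LV (median 190.0), against 280.1 to 404 CPM in WT LV (median 316). It did not overlap, and the log2 fold change was -0.74 (SE 0.09, adjusted p = 6.9e-06). Cardiomyocyte markers were lower there (0 higher and 10 lower of 12), at a summed 105529 to 138310.0 CPM in AAV_3E13 LV and 164633 to 193500.0 CPM in WT LV. Macrophage markers (12 of 12) and fibroblast markers (11 of 12) were higher. The part of these cells in the members' values was not tested. The WT LV libraries differed among themselves in effective length, mitochondrial share and members' levels, as given below for WT. That part was not tested either. With effective lengths as offsets, 23 (22 higher and 1 lower) members were called in AAV_3E13 LV, beside 4691 of 13116 genes.

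In the LV of the other vector groups edgeR called 0 members. For AAV_1E14 there were 3 at an unadjusted p below 0.05 and 0 by DESeq2, beside 0.00750% of 13327 genes called. For AAV_1E14_2.5wk there were 4 at an unadjusted p below 0.05 and 0 by DESeq2, beside 1.49% of 13274 genes called. The members' log2 fold changes ranged over -0.14 to 0.49 in AAV_1E14 LV and -0.36 to 0.53 in AAV_1E14_2.5wk LV.

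**Figure D3:**
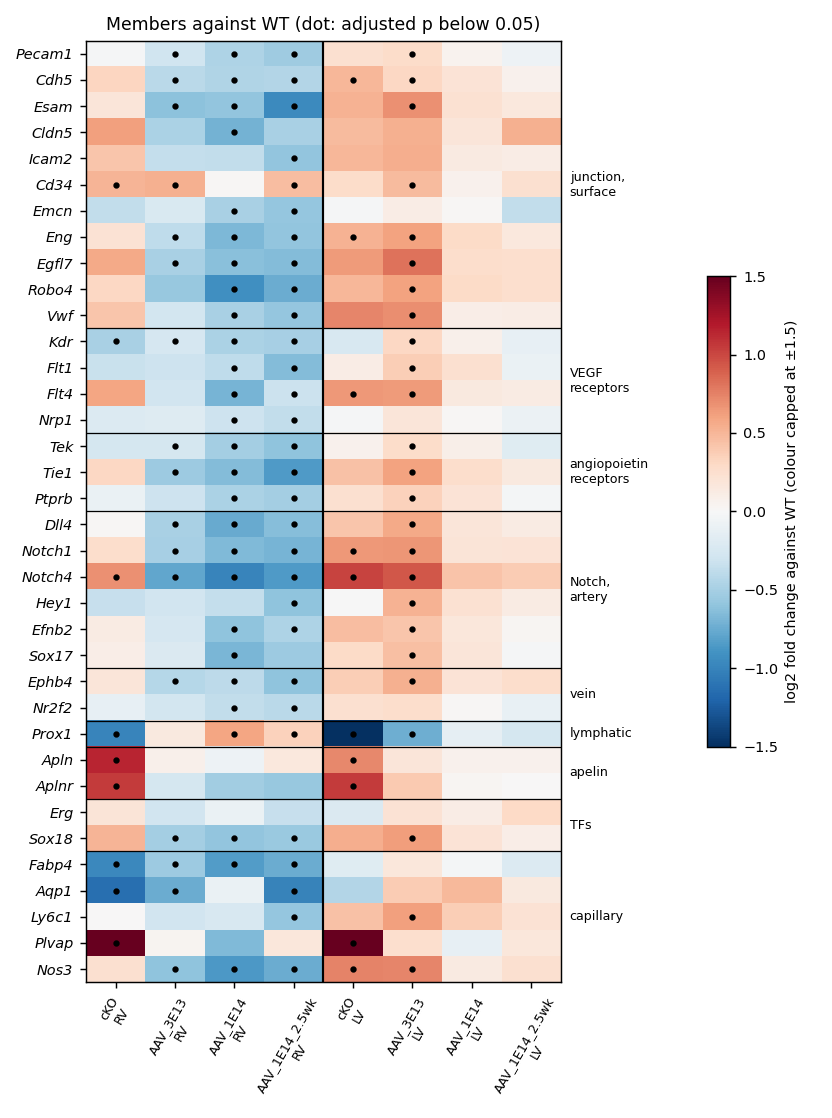
Log2 fold change of each member against WT (colour, capped at ±1.5) in the 4 knockout groups for RV and LV, by class of gene, with a dot where the adjusted p was below 0.05. In RV 16, 26 and 28 members are called lower in the 3 vector groups, in LV 24 are called higher in AAV_3E13, where Prox1 is the 1 member called lower.

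In AAV_3E13, 14 members were called lower in RV and higher in LV: Pecam1, Cdh5, Esam, Eng, Egfl7, Kdr, Tek, Tie1, Dll4, Notch1, Notch4, Ephb4, Sox18 and Nos3. Kdr, for example, had 327 to 432 CPM in AAV_3E13 RV (median 394), against 377 to 531 CPM in WT RV (median 448), and 399 to 688 CPM in AAV_3E13 LV (median 530.2), against 372 to 520.2 CPM in WT LV (median 438). Over all genes, 10.0% were called lower in RV and 19.9% higher in LV in AAV_3E13, and the share called both ways was not counted. On the log2(TPM + 1) scale, Esam was the only 1 of the 14 still called lower in RV. The difference between the RV and LV changes was tested for each vector group. In AAV_3E13 it was called below 0 for 27 members and above 0 for 1, 28 of 36, against 36.9% of 13983 genes called and 18.1% below 0. In AAV_1E14 it was called below 0 for 19 and above 0 for 1, 20 of 36, against 20.0% of 14066 genes called and 8.61% below 0. In AAV_1E14_2.5wk it was called below 0 for 18 and above 0 for 1, 19 of 36, against 18.4% of 14095 genes called and 7.72% below 0. Prox1 was the gene called above 0 each time (0.89, 0.73 and 0.64). Notch4 was among those below 0 in AAV_3E13 (-1.69, SE 0.30) and in AAV_1E14 (-1.41, SE 0.31). Without WT_RV_5819 the counts were 28, 20 and 18, and without AAV_1E14_2.5wk_RV_5814 the third was 19.

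The WT hearts enter each of these differences, so RV and LV were compared within each group. In WT, 19 members were higher and 1 lower in RV than in LV, 20 of 36, against 27.7% of 12970 genes called and 12.3% called higher. Vwf, the adhesive protein stored in endothelium, had 177 to 362 CPM in WT RV (median 273), against 77.0 to 144 CPM in WT LV (median 88.1). The ventricles did not overlap, and the log2 fold change of RV over LV was 1.34 (SE 0.15, adjusted p = 5.2e-06). Esam (0.66, SE 0.14), Ly6c1 (0.50), Eng (0.48), Notch1 (0.48) and Fabp4 (0.37) were higher too. Prox1 was lower in RV (-0.60, SE 0.09). Without WT_RV_5819 17 members were called. Cardiomyocyte markers were lower in RV than in LV for 10 of 12 and higher for 1 in WT. The effective length of a library, as the median over genes of its log2 ratio to the mean of all libraries, was 0.02 to 0.08 in WT RV and -0.08 to 0.02 in WT LV, and mitochondrially encoded genes took a median of 28.4% and 37.8% of counts. WT_LV_2004, WT_LV_5803 and WT_LV_5819 had effective lengths of 0.01 to 0.02 and mitochondrial shares of 27.7% to 32.1%. Their members' mean deviations were 0.03 to 0.17. The other WT LV libraries had lengths of -0.08 to -0.03, mitochondrial shares of 37.5% to 40.2% and deviations of -0.29 to -0.15. Within WT RV, the library with the lowest effective length (WT_RV_5813) had a members' mean deviation of 0.18, and the one with the highest (WT_RV_13) had 0.15. The part of effective length and of mitochondrial share in the members' levels was not tested. With effective lengths as offsets 17 (16 higher and 1 lower) members were called in WT, and with mitochondrially encoded genes kept 20 (19 higher and 1 lower). The offsets gave 27, 22 and 16 members for the difference of ventricles in AAV_3E13, AAV_1E14 and AAV_1E14_2.5wk.

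In AAV_3E13, 1 member was higher and 20 were lower in RV than in LV, 21 of 36, against 20.2% of 13235 genes called and 9.48% called lower. Notch4 had 18.4 to 39.0 CPM in AAV_3E13 RV (median 24.4) and 36.4 to 87.9 CPM in AAV_3E13 LV (median 57.3), which gave a log2 difference of -1.21 (SE 0.19, adjusted p = 0.00076). Sox18, a transcription factor of growing endothelium (-0.96, SE 0.16, and -0.62 on the log2(TPM + 1) scale), and Nos3 (-0.86, SE 0.17) were lower too. In AAV_1E14 the 2 members called were Notch4 (-0.93) and Vwf (0.74), against 2.95% of 12947 genes. With the animal as a block, 14 (1 higher and 13 lower) were called in AAV_1E14. Without AAV_1E14_2034 there were 4 calls, and without AAV_1E14_5726, AAV_1E14_5822 or AAV_1E14_5825 there were 0, as there were on the log2(TPM + 1) scale and with length offsets. In AAV_1E14_2.5wk edgeR called 0 members, with 18 at an unadjusted p below 0.05 and 4 by DESeq2, against 0.0226% of 13277 genes called, and the block gave 1 call (Tie1, lower in RV). Without the pair of libraries of AAV_1E14_2.5wk_5814 the block called 0 members, and the difference of ventricles with the block gave 23, against 23 with the pair. In cKO edgeR called 0 members, with 0 at an unadjusted p below 0.05 and 0 by DESeq2, against 0.00726% of 13769 genes called. The members' median RV over LV log2 fold change was 0.02 in cKO, -0.49 in AAV_3E13, -0.35 in AAV_1E14, -0.28 in AAV_1E14_2.5wk and 0.36 in WT. In cKO the median on the log2(TPM + 1) scale was -0.07, the other side of 0.

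**Figure D4:**
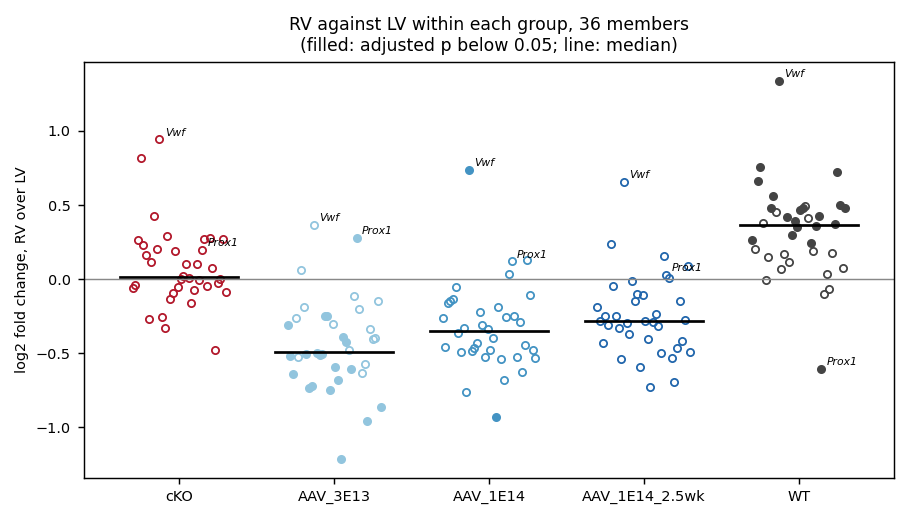
Log2 fold change of RV over LV for the 36 members within each group (points, filled where the adjusted p was below 0.05, with the median as a line). The medians are 0.02 in cKO, -0.49, -0.35 and -0.28 in the 3 vector groups and 0.36 in WT.

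The vector groups were also set against untreated cKO hearts, which these comparisons share. In AAV_3E13 RV 1 member was higher and 18 lower, 19 of 36, against 42.0% of 14051 genes called and 22.6% lower. In AAV_1E14 RV 2 were higher and 22 lower, 24 of 36, against 50.6% of 13708 genes called and 26.4% lower. In AAV_1E14_2.5wk RV 1 was higher and 21 lower, 22 of 36, against 47.9% of 13911 genes called and 25.2% lower. Notch4 had 18.4 to 39.0 CPM in AAV_3E13 RV (median 24.4), 15.3, 22.8, 25.5, 20.2 and 27.4 CPM in AAV_1E14 RV and 19.5 to 28.8 CPM in AAV_1E14_2.5wk RV (median 24.7), against 75.6, 72.4, 72.8 and 59.0 CPM in cKO RV. No vector library overlapped cKO, and the log2 fold changes were -1.44, -1.62 and -1.499 (SE 0.19, 0.17 and 0.12). On the log2(TPM + 1) scale Notch4 was not called in AAV_3E13 (-0.48, adjusted p = 0.087) or in AAV_1E14 (-0.63, adjusted p = 0.061), and its value was -0.59 in AAV_1E14_2.5wk. With length offsets the values were -0.74, -0.77 and -0.86, and its median effective length was 3288, 2677 and 3351 bases in the vector groups, against 4726 bases in cKO RV. Plvap (-1.80, -2.47 and -1.65) and Aplnr (-1.30, -1.51 and -1.58) were lower than in cKO in all 3 groups, with Plvap at -0.96 in AAV_3E13 on the log2(TPM + 1) scale. Prox1 was higher in all 3 (1.14, 1.63 and 1.37, SE 0.26, 0.32 and 0.30), without overlap.

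On the log2(TPM + 1) scale the RV counts against cKO were 8 (6 higher and 2 lower) in AAV_3E13, 10 (2 higher and 8 lower) in AAV_1E14 and 9 (1 higher and 8 lower) in AAV_1E14_2.5wk. Over all genes that scale called 5554 of 14051, 6047 of 13708 and 5643 of 13911. In each group the share of members called was then below that of all genes, whereas with edgeR on counts it was above. That scale moved the median of all genes to 0.23, 0.09 and 0.14. The members' medians relative to it were -0.27, -0.50 and -0.44, beside -0.48, -0.66 and -0.59 on counts. With length offsets the AAV_3E13 count was 10 (1 higher and 9 lower), beside 5011 of 14051 genes.

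In the LV few members differed from cKO. In AAV_3E13 LV 2 were called (1 higher and 1 lower), against 18.0% of 13964 genes. In AAV_1E14 LV 3 were (2 higher and 1 lower), against 35.4% of 13602 genes, and in AAV_1E14_2.5wk LV 3 were (1 higher and 2 lower), against 33.3% of 13768 genes. Without cKO_2006 the AAV_1E14 count was 5, and the AAV_1E14_2.5wk count was 1 without cKO_3217 or without AAV_1E14_2.5wk_5810 or AAV_1E14_2.5wk_5814. Prox1 had 164 to 240.1 CPM in AAV_3E13 LV (median 190.0), 366, 262, 298, 270.0 and 299 CPM in AAV_1E14 LV and 232 to 319 CPM in AAV_1E14_2.5wk LV (median 264), against 35.7, 139, 86.8 and 109 CPM in cKO LV. All vector libraries lay above cKO, by 1.06, 1.69 and 1.57 on the log2 scale. Plvap was lower in all 3 groups (-1.38, -1.72 and -1.42). The remaining calls were Aqp1 in AAV_1E14 (0.91, SE 0.29) and Aplnr in AAV_1E14_2.5wk (-1.06, SE 0.35). The Aqp1 call was lost when any 1 of 6 (of 9) animals was omitted. The Aplnr call was lost on the log2(TPM + 1) scale (-0.83, adjusted p = 0.063) and when any 1 of 6 (of 10) animals was omitted, cKO_2052 among them (-0.59, adjusted p = 0.16). In AAV_1E14_2.5wk the Plvap call was lost when any 1 of 7 (of 10) animals was omitted.

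Dose was compared between AAV_1E14 and AAV_3E13. In RV 2 members were called, against 9.97% of 13456 genes, with Prox1 higher (0.43, SE 0.08) and Cd34 lower (-0.53, SE 0.14) in AAV_1E14. In LV 5 were called, against 19.0% of 13529 genes, with Prox1 higher (0.60, SE 0.11) and Flt4 (-0.50), Notch1 (-0.47), Cd34 (-0.42) and Nos3 (-0.60) lower. Prox1, with the values given above, did not overlap between the doses in either ventricle. Single animals moved these counts. In RV 1 member was called without AAV_1E14_5822 or AAV_3E13_2033 and 4 without AAV_3E13_2048. In LV 1 was called without AAV_1E14_2034, 3 without AAV_1E14_5822 or AAV_1E14_5825, 9 without AAV_1E14_2043, and 8 without AAV_3E13_5759. Of the 13 animals, any 1 of 3 ended the Cd34 call in RV when omitted, and in LV any 1 of 4 ended that of Cd34, 3 that of Nos3, 2 that of Notch1 and 1 that of Flt4. On the log2(TPM + 1) scale Prox1 was not called in RV (0.32, adjusted p = 0.067), nor were Flt4 (-0.48, adjusted p = 0.071) and Cd34 (-0.52, adjusted p = 0.068) in LV.

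Time of dosing was compared between AAV_1E14_2.5wk and AAV_1E14. In RV 1 member was called, against 8.93% of 13253 genes. Aqp1 had 89.8 to 168 CPM in AAV_1E14_2.5wk RV (median 103), against 186, 129.9, 283, 208 and 268 CPM in AAV_1E14 RV, which gave a log2 difference of -0.89 (SE 0.20, adjusted p = 0.017). The count was 2 without AAV_1E14_2043 and 3 without AAV_1E14_2.5wk_5801. In LV edgeR called 0 members, with 2 at an unadjusted p below 0.05 and 0 by DESeq2, against 0% of 13234 genes called.

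Within groups the members varied together. Deviations of log2 CPM from the mean of each group and ventricle were set against the mean deviation of the other members over 64 libraries, as a description, since the libraries of 1 animal share a heart and all libraries differ in depth. Of the 36 members, 27 had a Pearson r above 0.5, and the median was 0.60. Tie1 (0.88), Ephb4 (0.81), Efnb2 (0.79), Notch1 (0.79) and Kdr (0.79) followed the others most closely. Apln (0.13), Plvap (0.18), Cd34 (0.22) and Sox17 (0.28) followed them least. Esam had 0.18 over the 32 RV libraries and 0.79 over the 32 LV libraries, and Cd34 had -0.007 and 0.42.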

How the data were processed

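RNA of the RV and LV of 32 mice was sequenced as paired-end reads from a stranded kit. The labels name both polyA selection and ribosomal depletion, and which was used was not settled. The authors trimmed reads with fastp and quantified them with Salmon 1.8.0 against GRCm39, and they deposited, per gene and library, estimated counts, TPM and effective lengths in bases. No column was left unmapped to a sample. Of 39153 rows, 12237 had no counts. The 37 mitochondrially encoded genes (16.6% to 40.2% of a library) and 1 unnamed row (at most 0.00136%) were left out before library sizes, and TPM was rescaled without them. Totals were 7.96 M to 14.6 M counts per library before this step.

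Deposited estimated counts were rounded and tested with edgeR 4.0.16 (quasi-likelihood F test, TMM, filterByExpr, R 4.3.3) between pairs of groups within a ventricle, between ventricles within a group, and for the difference of both. P-values were adjusted by Benjamini-Hochberg over all genes tested, with a threshold of 0.05. The SE is the log2 fold change divided by the root of F. CPM used TMM factors over all libraries, and TPM was used for levels between genes. Alternatives were DESeq2 1.42.0, RLE factors, no low count filter, limma 3.58.1 with trend on log2(TPM + 1), mitochondrial genes kept, effective lengths as offsets, the animal as a replicate block, and each animal left out in turn. Leaving out WT_RV_5819 or AAV_1E14_2.5wk_RV_5814 was added after seeing the data, as was the block without animal AAV_1E14_2.5wk_5814. The tests were checked on simulated counts. Ventricles of 1 animal are paired by the labels. Over 13892 genes, the correlation of their deviations from the group means had a median of 0.14 (-0.04 to 0.59), against -0.02 between different animals.

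The members and lists were chosen with earlier results of these data known. Members were named where called without overlap or in opposite directions in RV and LV, and otherwise up to 6 in each direction by p, with up to 4 genes of each other list. Members shown beyond this rule, such as Kdr in AAV_3E13, Cdh5 in cKO and Fabp4 in cKO LV, were chosen after their values were seen.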

Additional observations from a re-analysis of the deposited data

Results flagged for a closer look

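Some members had 1 library far from the rest of its group, by Dixon's test on the gap between the extreme library and its neighbour. In the LV of animal AAV_1E14_2.5wk_5801, Apln was at 20.6 CPM, Nos3 at 48.2 CPM and Notch1 at 186 CPM. In the RV of animal AAV_1E14_2.5wk_5806, Flt4 was at 65.0 CPM and Plvap at 11.9 CPM. Prox1 was at 37.0 CPM in the RV of animal cKO_2006. Fabp4 was at 557 CPM in the RV of animal WT_2031 and at 672 CPM in the LV of animal WT_2027. These were 8 of 140 groups examined, and chance gives about 1 in 20.

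The change against WT differed between RV and LV by a test of the difference itself. For AAV_3E13, 28 members passed, among them Prox1 (0.89), Notch1 (-1.15), Eng (-0.98), Esam (-1.29), Tie1 (-1.13), Flt4 (-0.92) and Notch4 (-1.69), as log2 differences of the RV change minus the LV change. For AAV_1E14, 20 passed, among them Prox1 (0.73), Fabp4 (-0.81), Eng (-0.96), Efnb2 (-0.77), Ptprb (-0.68), Notch4 (-1.41) and Pecam1 (-0.52). For AAV_1E14_2.5wk, 19 passed, among them Prox1 (0.64), Esam (-1.09), Tie1 (-0.98), Ephb4 (-0.85), Notch1 (-0.87), Eng (-0.72) and Ly6c1 (-0.77). The WT libraries are shared by the 3 tests.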

How the results depend on the processing

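Of 123 results for named members, 89 kept their call under every alternative, 34 lost it under at least 1 and 0 reversed. DESeq2 and RLE factors lost 0, as did the replicate block over the 37 results between ventricles it could be run on, and limma on log2(TPM + 1) lost 19, effective length offsets 8, no low count filter 3 and keeping mitochondrial genes 1. On the log2(TPM + 1) scale the counts of members called against WT were 4 (2 higher and 2 lower) in AAV_3E13 RV, 16 (1 higher and 15 lower) in AAV_1E14 RV and 1 (Cldn5, higher) in AAV_1E14_2.5wk LV. Against cKO they were 8 (6 higher and 2 lower), 10 (2 higher and 8 lower) and 9 (1 higher and 8 lower) in the RV of AAV_3E13, AAV_1E14 and AAV_1E14_2.5wk. The genes called on this scale in these RV comparisons are given above. For AAV_1E14 against AAV_3E13 the counts of members were 4 (0 higher and 4 lower) in RV and 3 (1 higher and 2 lower) in LV. For RV against LV they were 12 (1 higher and 11 lower) in AAV_3E13 and 0 in AAV_1E14, and for the difference of ventricles 1 in cKO (Fabp4, below 0) and 11 in AAV_1E14_2.5wk (1 above and 10 below 0). Length offsets gave 10 (1 higher and 9 lower) for AAV_3E13 against cKO in RV and 0 for RV against LV in AAV_1E14. DESeq2 gave 6 (2 higher and 4 lower) in RV and 8 (1 higher and 7 lower) in LV for AAV_1E14 against AAV_3E13, 3 (1 higher and 2 lower) for AAV_1E14_2.5wk against AAV_1E14 in RV, and 11 (1 higher and 10 lower) in AAV_1E14 and 4 (1 higher and 3 lower) in AAV_1E14_2.5wk for RV against LV. The replicate block gave 14 (1 higher and 13 lower) in AAV_1E14 and 1 in AAV_1E14_2.5wk for RV against LV, and 2 for the difference of ventricles in cKO, and moved no other count by over 1.5 times. In cKO RV the split of 5 higher and 4 lower was 2 and 5 on the log2(TPM + 1) scale and 3 and 4 with length offsets. The cause of these changes was not tested.

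With each animal omitted in turn, the counts were 7 to 14 members in RV and 3 to 17 in LV for cKO against WT, 2 to 5 for AAV_1E14 and 1 to 4 for AAV_1E14_2.5wk against cKO in LV, 1 to 4 in RV and 1 to 9 in LV for AAV_1E14 against AAV_3E13, 1 to 3 for AAV_1E14_2.5wk against AAV_1E14 in RV, and 0 to 4 for RV against LV in AAV_1E14. With 4 cKO animals, small changes may be missed. Members with low counts, such as Apln and Plvap, are measured with the least precision.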
